A study of Mus musculus with 10 samples.

Results

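Cytochrome P450 genes encode haem-containing enzymes that insert oxygen into drugs, steroids, fatty acids, vitamins and other small molecules. They were followed here in brown adipose tissue, the heat-producing fat of rodents, from 10 mice. A gene was counted as a member when its symbol in the annotation of the array platform was Cyp followed by digits, letters and digits, and when at least 1 probe set carried that gene alone. This gave 70 members among 18193 measured genes. The 70 members had 93 probe sets in all, and the set with the highest mean over the 10 arrays stood for each gene. The groups were 5 wild-type (WT) mice and 5 mice whose labels give a knockout (KO) of Sirt3, the gene of a deacetylase in mitochondria. All were untreated littermates of about 1 year of age on the 129 background, so background and approximate age were common to both groups. The KO is described by genotype alone, with no tissue restriction and no account of which part of the gene was removed. Each Affymetrix array was taken as 1 mouse. Values are log2 signals made with RMA, a method that removes background, evens out the arrays and sums up the probes of a set, so 1 unit is a doubling of signal. The study is titled for SIRT3, HIF1a and cancer metabolism, and the contrast of KO with WT asks what the genotype changes in transcript levels.

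P450 enzymes of the endoplasmic reticulum draw electrons from P450 reductase, while those of mitochondria draw them from ferredoxin. Members of the early-numbered families act mainly on drugs, dietary compounds and fatty acids and are best known from liver, where ligand-activated receptors such as AHR, CAR and PXR induce them. Other families make or break down steroid hormones, bile acids, vitamin D and retinoic acid. In adipose tissue, P450 products of fatty acids and sterols act as local signals, and Cyp2e1 is a known transcript of adipocytes.

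The arrays resembled each other, with pairwise correlations over all probe sets from 0.988 to 0.997 and array medians from 5.58 to 5.61. Ucp1, the uncoupling protein that defines brown fat, had signals from 13.96 to 14.28 in all 10 arrays. Sirt3 itself was not lower in the arrays labelled KO: its mean was 10.13 ± 0.10 (SD, n = 5) in WT and 10.32 ± 0.07 (SD, n = 5) in KO. Groups below are therefore those of the labels, and a probe set outside the removed part would not check them. Skeletal muscle markers (10 of 10 measured, all above the array medians) ranged in their mean from 8.12 to 12.26 in WT and from 5.13 to 12.23 in KO, and KO 1 (5.57), KO 3 (5.13) and WT 5 (8.12) lay below the other arrays. Hepatocyte markers (7 of 8 measured, 3 above the array medians) had means from 5.46 to 5.58 in WT and from 5.43 to 5.60 in KO, and Alb, the albumin gene, stayed between 3.93 and 4.59. Adrenal cortex markers (5 of 6 measured, 3 above the array medians) had means from 6.41 to 6.52 in WT and from 6.44 to 6.57 in KO. The labels give no sex, and Xist, which is transcribed from an inactive X chromosome, was 7.39 in WT 3 and 7.35 in KO 4 against 5.59 to 5.89 elsewhere, while the Y-linked Eif2s3y was between 9.39 and 9.68 in every array. In whole tissue, fewer cells of a type and less RNA per cell cannot be told apart.

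No P450 gene differed between arrays labelled Sirt3 KO and WT after adjustment, and what set a few members apart was how widely they varied from mouse to mouse. Cyp2e1 and Cyp2b10 varied over a 35.5-fold and a 19.2-fold range of signal among the 10 arrays. Those ranges rest in part on WT 4 and WT 5. Without WT 4 they were 13.5-fold and 8.99-fold, and without both arrays they were 4.95-fold and 8.67-fold. The standard deviation (SD) was under 0.2 log2 units in 61 of the 70 members (87.1%), against 84.4% of all genes. By limma with Benjamini-Hochberg adjustment over all genes, 0 of 70 members had an adjusted p under 0.05, beside 0% of all 18193 genes, and the smallest adjusted p of any gene was 0.914. Before adjustment, 2 members (2.86%), Cyp2j6 and Cyp2d34, had a p under 0.05, against 4.68% of all genes. Both were lower in KO, as were 2.83% of all genes, while 0 members and 1.85% of all genes were higher. This count was 7 (10%) without WT 2, where 7.79% of all genes had such a p, and 6 (8.57%) without KO 2, against 5.72% of all genes. It was 1 (1.43%) without WT 3, WT 4, WT 5 or KO 4, against 3.95%, 3.6%, 3.72% and 3.36% of all genes. The mean was lower in KO in 39 members (55.7%), against 56.1% of all genes. The KO and WT values did not overlap in 1 member (1.43%), Cyp2d34, against 0.627% of all genes (0.423% with KO lower), and in 3 members (4.29%) without WT 2 or without KO 2, against 2.19% and 1.73% of all genes. With so few members past each limit, the shares do not set the P450 genes apart from all genes. The median difference, KO minus WT, was -0.017 log2 units in the members and -0.013 in all genes, and 64 of the 70 differences (91.4%) lay within 0.2 of 0, against 92.8% of all genes. The 95% confidence interval of a member, not adjusted for the number of genes, reached a median of 0.168 log2 units to either side. Differences smaller than that were not resolved with 5 arrays per group. Larger ones were not resolved in members with wide intervals, such as Cyp2b10 (-1.88 to 1.70). P-values measure only the spread between these samples, which the labels describe as mice without saying how they were processed.

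**Figure D1:**
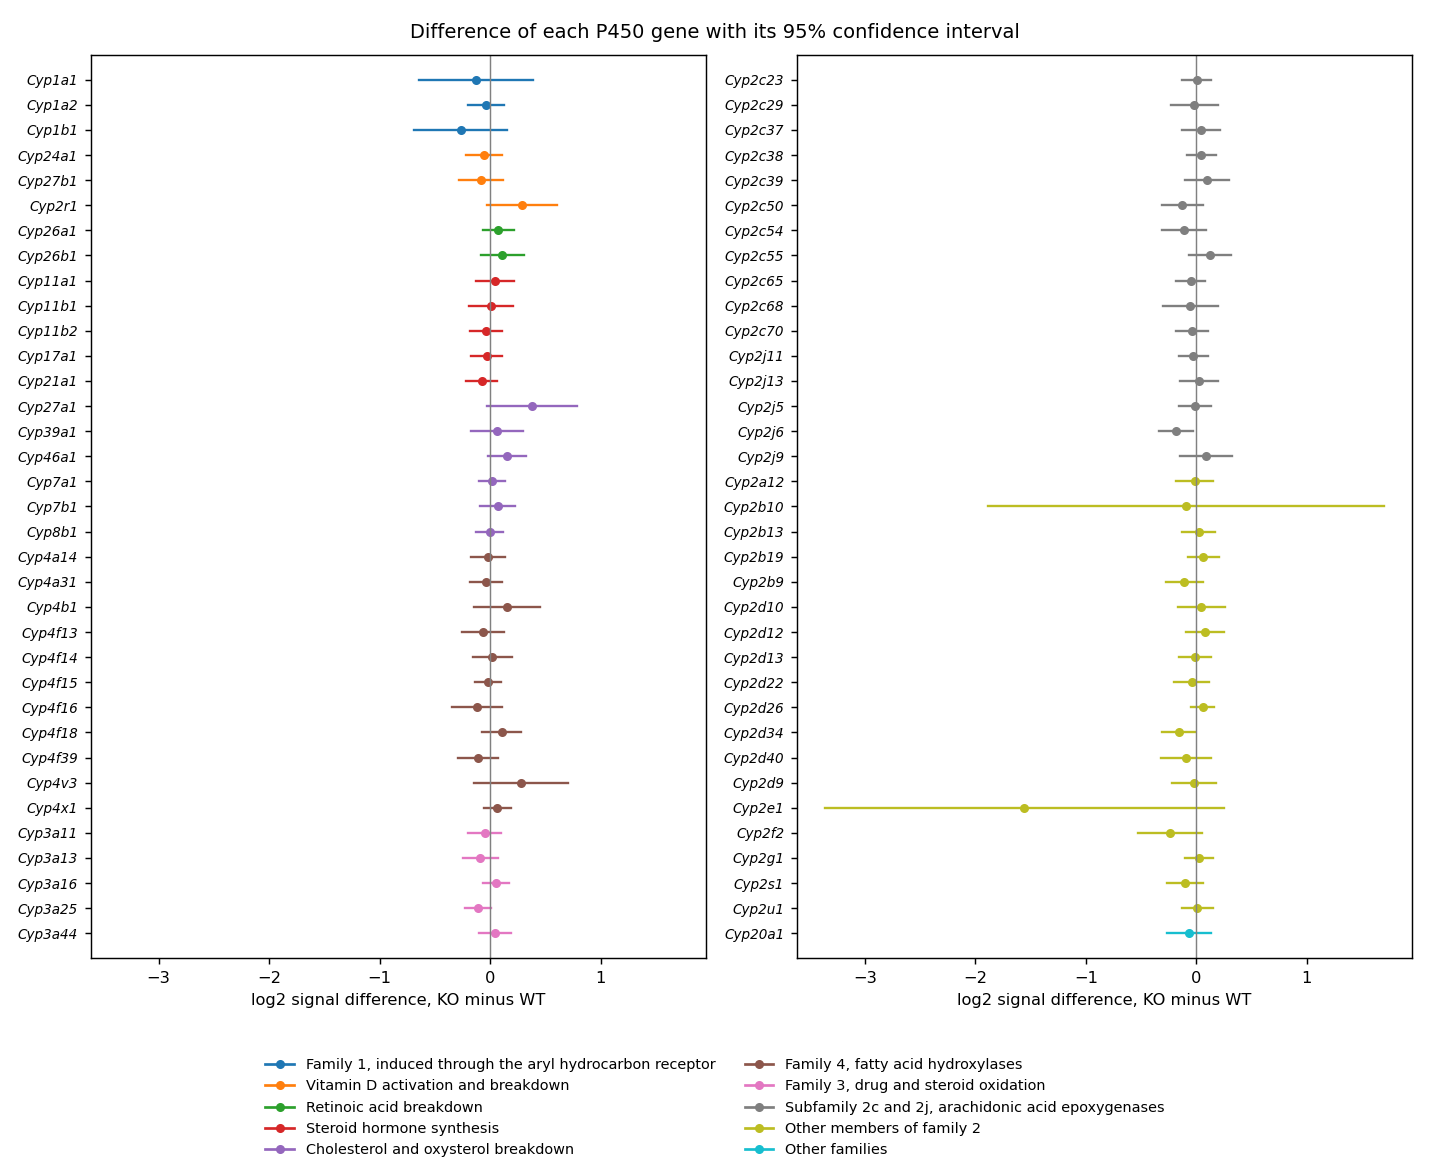
Difference in log2 signal, KO minus WT, of each of the 70 P450 genes (points) with its 95% confidence interval from limma (bars), coloured by role. The intervals of Cyp2e1 and Cyp2b10 are several times wider than the rest. The point of Cyp2e1 lies farthest from 0 (-1.56), and 64 of the 70 points lie within 0.2 of 0.

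The spread over the 10 arrays stood in the top 5% of all genes for 6 members (8.57%, against 5% of all genes by construction): Cyp2e1, Cyp2b10, Cyp1a1, Cyp27a1, Cyp4v3 and Cyp1b1. The SD was 1.67 for Cyp2e1, which ranked 37 among 18193 genes, and 1.44 for Cyp2b10, which ranked 53. It was 0.41 for Cyp1a1, 0.38 for Cyp27a1, 0.37 for Cyp4v3 and 0.36 for Cyp1b1. The median SD of the members was 0.123, against 0.125 for all genes. When each member was set beside genes whose mean signal was within 0.5, the top 5% held 5 members, which were Cyp2e1, Cyp2b10, Cyp1a1, Cyp2r1 and Cyp2f2. The arrays WT 4 and WT 5 carried much of this spread: with both left out, 3 members were in the top 5%. The mean signal was above the highest array median in 15 members (21.4%), against 64% of all genes. RMA gives no detection call, so how far the others lay above background is not known, and levels of different genes are not compared because probe sets differ in brightness.

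**Figure D2:**
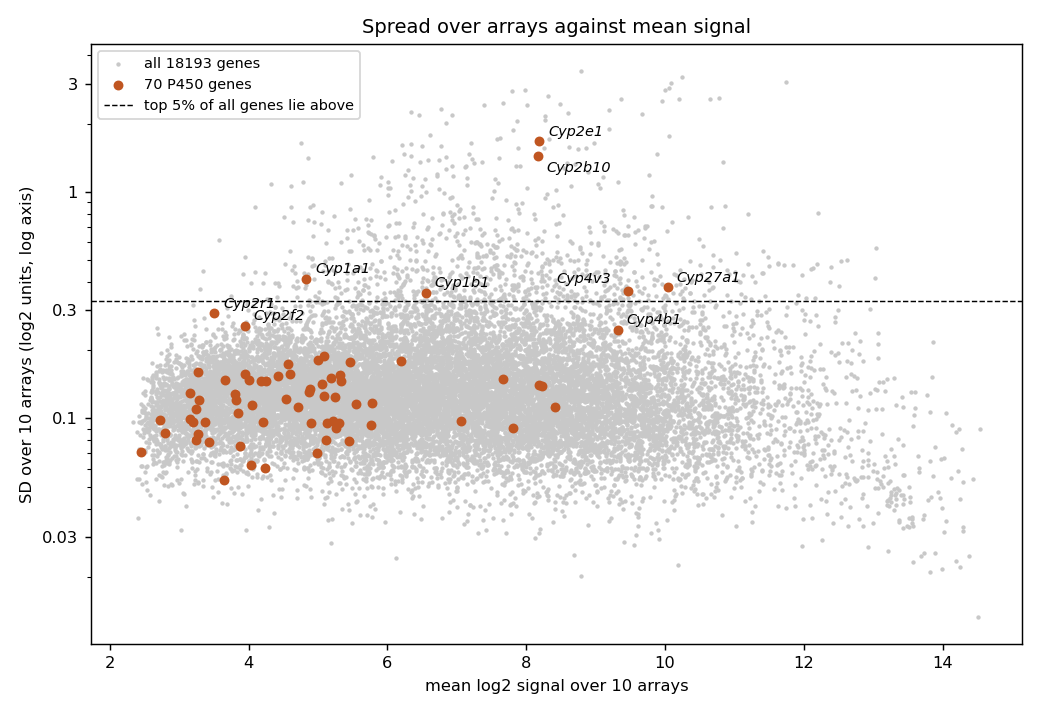
SD over the 10 arrays (log axis, log2 units) against the mean log2 signal of each gene, with all 18193 genes in grey, the 70 P450 genes in orange and the boundary of the top 5% as a dashed line. Cyp2e1 (SD 1.67) and Cyp2b10 (SD 1.44) lie far above the other members.

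Promoter sequence is shown for the pair of members with the widest spread, Cyp2e1 and Cyp2b10, and for Cyp27a1 and Cyp4v3, whose signals moved together from array to array. Each line holds the 250 bases before the annotated start, 5′ to 3′ on the strand of the gene, from RefSeq on GRCm38.p6. Cyp2e1 is at chr7:140763569-140763818 (plus strand), Cyp2b10 at chr7:25897408-25897657 (plus strand), Cyp27a1 at chr1:74713285-74713534 (plus strand) and Cyp4v3 at chr8:45333164-45333413 (minus strand). Capitals mark exact matches on either strand to 5 short motifs, none of which contains another. Core promoter elements were searched as TATAAA, where the polymerase machinery is positioned, and as CCAAT, which the factor NF-Y binds. Receptor elements were searched as GCGTG, the core that AHR binds, and as AGGTCA, the core that nuclear receptors bind. The E-box of basic helix-loop-helix factors was searched as CACGTG.
Cyp2e1: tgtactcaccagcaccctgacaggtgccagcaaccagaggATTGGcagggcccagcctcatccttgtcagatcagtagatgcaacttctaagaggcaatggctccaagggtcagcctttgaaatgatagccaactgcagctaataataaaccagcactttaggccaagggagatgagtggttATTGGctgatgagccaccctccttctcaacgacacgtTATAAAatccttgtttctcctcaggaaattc
Cyp2b10: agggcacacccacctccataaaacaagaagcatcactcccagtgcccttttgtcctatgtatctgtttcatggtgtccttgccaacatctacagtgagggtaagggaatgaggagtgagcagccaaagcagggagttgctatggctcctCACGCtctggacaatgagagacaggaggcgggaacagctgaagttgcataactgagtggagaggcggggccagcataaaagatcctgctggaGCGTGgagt
Cyp27a1: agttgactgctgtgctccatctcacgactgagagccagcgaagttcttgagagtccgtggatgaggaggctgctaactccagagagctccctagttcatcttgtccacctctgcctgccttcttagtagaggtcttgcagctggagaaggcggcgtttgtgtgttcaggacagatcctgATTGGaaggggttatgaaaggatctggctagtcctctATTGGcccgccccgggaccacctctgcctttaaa
Cyp4v3: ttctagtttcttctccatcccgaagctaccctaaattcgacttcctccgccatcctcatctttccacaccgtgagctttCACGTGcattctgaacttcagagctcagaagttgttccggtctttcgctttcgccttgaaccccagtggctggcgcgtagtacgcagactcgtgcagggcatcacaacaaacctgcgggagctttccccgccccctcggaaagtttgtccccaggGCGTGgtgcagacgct
Cyp2e1 held a TATAAA 31 bases before its start and reverse CCAAT boxes at 210 and 68 bases. Cyp2b10 held GCGTG at 9 bases and its reverse at 101 bases. Cyp27a1 held reverse CCAAT boxes at 71 and 34 bases, and Cyp4v3 held CACGTG at 171 and GCGTG at 16 bases, so this pair had no searched motif in common. RefSeq windows were found for 51 of the 70 members, 58 windows in all, as some genes have several starts. TATAAA was in 32.8% of these, against 12.4% of 32851 windows of all genes. CCAAT was in 43.1% against 33.8%, AGGTCA in 22.4% against 14%, GCGTG in 22.4% against 28.2% and CACGTG in 3.45% against 6.02%. A match describes the letters only, and clustered members share ancestry and sequence.

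Cyp2e1, which oxidises ethanol, acetone and fatty acids, varied most of all members. Its log2 signal was 8.04, 6.47, 8.68, 11.53 and 10.13 in WT 1 to 5 and 7.31, 8.49, 8.35, 6.53 and 6.38 in KO 1 to 5. WT 4 and WT 5 lay above every other array, and the remaining WT values overlapped those of KO. The mean was 8.97 ± 1.94 (SD, n = 5) in WT and 7.41 ± 0.99 (SD, n = 5) in KO. The difference was -1.56 ± 0.82 (SE) log2 units, with a 95% confidence interval from -3.36 to 0.25 and an adjusted p of 0.914 by limma. An exact two-sided permutation test over the 252 splits of 10 arrays gave p = 0.17. It was -0.92 without WT 4, and -0.32 ± 0.61 without WT 4 and WT 5, and with the mean of the muscle markers as a covariate it was -1.96 ± 0.83 (adjusted p = 0.64 by limma).

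Cyp2b10, the classical target of the receptor CAR in liver, varied almost as widely but without a difference in mean. Its signal was 6.41, 7.03, 7.35, 10.67 and 9.58 in WT 1 to 5 and 8.83, 6.44, 9.53, 8.01 and 7.78 in KO 1 to 5. High and low arrays occurred in both groups, whose means were 8.21 ± 1.82 (SD, n = 5) in WT and 8.12 ± 1.16 (SD, n = 5) in KO. The difference was -0.090 ± 0.82 (adjusted p = 0.991 by limma), and an exact two-sided permutation test gave p = 0.93. It turned to 1.19 ± 0.58 (unadjusted p = 0.069 by limma) without WT 4 and WT 5, to 0.53 without WT 4 alone, to 0.25 without WT 5 alone and to 0.33 without KO 2. All 3 probe sets of Cyp2b10 showed the same pattern over arrays, with correlations of the other sets to the one used of 0.993 and 0.998. The closely related Cyp2b9, Cyp2b13 and Cyp2b19, which lie on the same chromosome, had SDs of 0.13, 0.097 and 0.096, although Cyp2b sequences are alike enough for probes to read more than 1 of them.

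The 4 arrays with the highest Cyp2b10 signal were the 4 with the lowest muscle marker means. These were WT 4 (Cyp2b10 at 10.67, muscle mean 10.47), WT 5 (9.58 and 8.12), KO 3 (9.53 and 5.13) and KO 1 (8.83 and 5.57). In the 6 other arrays the muscle mean was at least 10.99 and Cyp2b10 at most 8.01. Over the 10 arrays, r was -0.65 and rho -0.79, with permutation p-values of 0.16 and 0.061 after adjustment over the 36 pairs described below. Without WT 4 and WT 5, r was -0.88. These pooled values call for care because KO 1, KO 3 and WT 5 lie apart in muscle signal. With the muscle mean as a covariate the difference of Cyp2b10 was -0.79 ± 0.64. WT 4 and WT 5 also stood apart in some fat transcripts. The mean of the brown adipocyte markers (9 of 10 measured, all 9 above the array medians) was 12.68 in WT 4 and 12.78 in WT 5, within ranges of 12.18 to 12.78 in WT and 12.19 to 12.41 in KO. Dio2, the deiodinase that activates thyroid hormone in brown fat, was 11.20 and 11.32 in these arrays and between 8.65 and 9.95 in the rest. Ucp1 (14.26 and 14.28) and Adipoq (14.02 and 13.94) were also highest there, by small margins. Not all markers of this list did so. Elovl3 was 11.55 and 11.43 there, but 11.55 in WT 3 and 11.54 in KO 2. Ppargc1a was highest in WT 5 (9.22) but was 8.45 in WT 4, within the range of the rest. Cidea was lowest in WT 5 (14.15). The white adipocyte markers (6 of 6 measured, 5 above the array medians) did not move together in WT 4 and WT 5. Lep, the leptin gene, was 6.34 and 5.75 there and between 7.92 and 10.23 in the rest, whereas Retn, the resistin gene, was highest there, at 9.91 and 9.21 against at most 8.83. Agt, the angiotensinogen gene, was highest in WT 4 (6.31) and was 6.02 in WT 5. The list had means from 6.69 to 7.90 in WT and from 6.91 to 7.70 in KO. The part of these transcripts in the P450 values was not tested beyond the fits given.

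**Figure D3:**
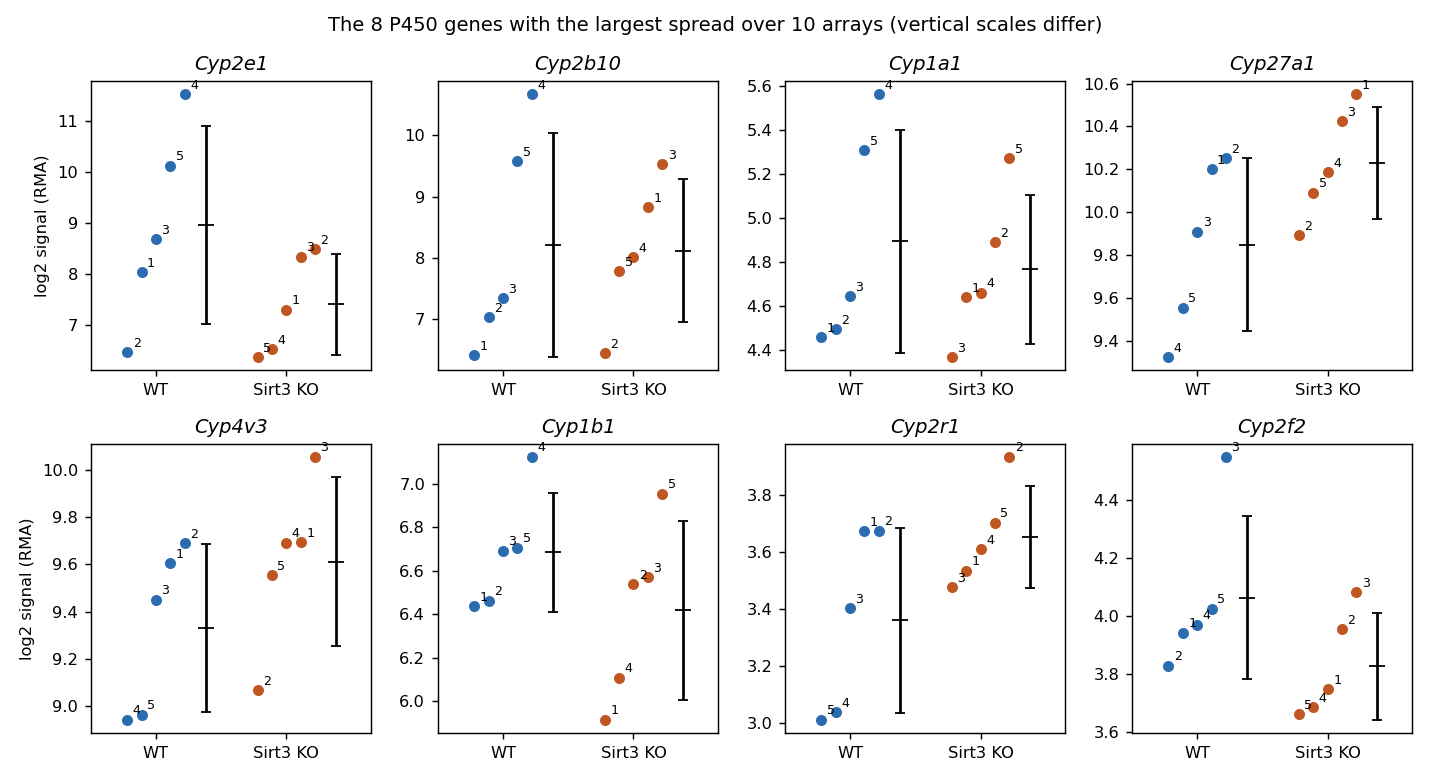
Log2 signal of the 8 P450 genes with the largest SD, 1 point per array labelled with its number and sorted by value within each group, WT in blue and Sirt3 KO in orange, with the group mean and SD (n = 5) as bars and a separate vertical scale in each panel. WT 4 is the highest array for Cyp2e1 (11.53), Cyp2b10 (10.67), Cyp1a1 (5.56) and Cyp1b1 (7.12) and the lowest for Cyp27a1 (9.32) and Cyp4v3 (8.94).

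Among the other members of family 2, which act on drugs, steroids and odorants, Cyp2d34 was the member whose groups did not overlap. Its signal was 4.09, 3.83, 3.86, 3.79 and 3.86 in WT 1 to 5 and 3.76, 3.78, 3.74, 3.58 and 3.78 in KO 1 to 5. Each KO array was lower than each WT array, although the highest KO and the lowest WT signal were almost level and the groups overlapped after repeated quantile normalization. The difference was -0.16 ± 0.068 (adjusted p = 0.914 by limma), and an exact two-sided permutation test gave p = 0.0079, the smallest that 5 against 5 arrays allow. Any gene without overlap gets this permutation p, so it restates the trait for which Cyp2d34 was picked and adds nothing to it. The signal was below the array medians, and the 8 Cyp2d members lie on 1 chromosome with sequences alike enough to share probes. Cyp2d26 gave 0.058 ± 0.047 (unadjusted p = 0.24 by limma), with p = 0.024 in an exact two-sided permutation test and WT 1, WT 3, WT 4 and WT 5 below every KO array. Cyp2d22, also of that cluster, gave -0.043 ± 0.074, and the others lay between -0.094 (Cyp2d40) and 0.079 (Cyp2d12).

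Cyp2f2, known for activating naphthalene in airway cells, gave 3.94, 3.83, 4.55, 3.97 and 4.02 in WT 1 to 5 and 3.75, 3.95, 4.08, 3.68 and 3.66 in KO 1 to 5. WT 3 was the highest and the groups overlapped, with a difference of -0.24 ± 0.13. Cyp2s1, an enzyme of epithelia outside the liver, gave -0.10 ± 0.075, with WT arrays from 5.04 to 5.23 and KO arrays from 4.87 to 5.27. Cyp2u1, a fatty acid hydroxylase, gave 0.0092 ± 0.065. Of the 18 members of family 2 outside the 2c and 2j groups, 7 had a higher and 11 a lower mean in KO, with a median of -0.018 log2 units.

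The 16 members of the 2c and 2j groups, which turn arachidonic acid into signalling epoxides, had a higher mean in KO in 7 and a lower one in 9, with a median difference of -0.015. Cyp2j6 had the smallest unadjusted p of all 70 members. Its signal was 8.40, 8.11, 8.29, 8.39 and 8.23 in WT 1 to 5 and 8.22, 8.05, 8.17, 8.07 and 7.99 in KO 1 to 5. The upper KO arrays overlapped the lower WT arrays, and the means were 8.28 ± 0.12 (SD, n = 5) in WT and 8.10 ± 0.09 (SD, n = 5) in KO. KO minus WT was -0.18 ± 0.070 log2 units, with a confidence interval from -0.34 to -0.031 and p-values by limma of 0.023 unadjusted and 0.914 adjusted. An exact two-sided permutation test gave p = 0.032. A second probe set of Cyp2j6 gave -0.13 and had a correlation of 0.73 with the first over the 10 arrays. Cyp2c55, an epoxygenase found in the gut, gave 0.12 ± 0.087. Cyp2c50, Cyp2c54 and Cyp2c39 gave -0.13, -0.11 and 0.098. The remaining differences lay between -0.055 (Cyp2c68) and 0.089 (Cyp2j9), and the Cyp2c genes of chromosome 19 are alike enough to share probes.

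Family 1 holds the enzymes that AHR induces in response to dioxin-like and plant compounds, and its 3 members had lower means in KO without passing the test. Cyp1a1 gave 4.46, 4.49, 4.64, 5.56 and 5.31 in WT 1 to 5 and 4.64, 4.89, 4.37, 4.66 and 5.27 in KO 1 to 5. The high arrays were WT 4, WT 5 and KO 5, and the difference was -0.13 ± 0.23, or 0.23 without WT 4 and WT 5 and 0.040 without WT 4 alone. Cyp1b1, which is expressed in stromal cells outside the liver, gave 6.44, 6.46, 6.69, 7.12 and 6.71 in WT 1 to 5 and 5.91, 6.54, 6.57, 6.11 and 6.95 in KO 1 to 5. The groups overlapped, with KO 1 and KO 4 lowest, and the difference was -0.27 ± 0.19, or -0.11 without WT 4 and WT 5. The other probe sets of Cyp1b1 gave -0.085 and 0.081. Cyp1a2, a caffeine-oxidising enzyme of liver, gave -0.036 ± 0.074.

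Family 3 enzymes oxidise drugs and steroids in liver and gut, and none of its 5 members had a mean above the array medians here. Cyp3a25 gave 2.80, 2.87, 2.80, 2.83 and 2.92 in WT 1 to 5 and 2.63, 2.83, 2.80, 2.68 and 2.76 in KO 1 to 5. Its groups overlapped, since KO 2 lay above WT 1 and WT 3, with a difference of -0.11 ± 0.054 (adjusted p = 0.914 by limma) and p = 0.032 in an exact two-sided permutation test. The other 4 lay between -0.088 (Cyp3a13) and 0.052 (Cyp3a16), and near-identical Cyp3a sequences make their assignment uncertain.

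Family 4 enzymes hydroxylate fatty acids at or near the end of the chain, and 5 of the 11 members had a higher and 6 a lower mean in KO, with a median of -0.019. Cyp4v3, a hydroxylase of medium-chain and polyunsaturated fatty acids, gave 9.61, 9.69, 9.45, 8.94 and 8.96 in WT 1 to 5 and 9.69, 9.07, 10.05, 9.69 and 9.55 in KO 1 to 5. WT 4, WT 5 and KO 2 were low, so the groups overlapped. The difference was 0.28 ± 0.19 log2 units, or 0.030 without WT 4 and WT 5. A second probe set gave 0.34 and had a correlation of 0.991 with the first. Cyp4b1, which hydroxylates short fatty acids and protoxins, gave 9.17, 9.42, 9.02, 9.54 and 9.06 in WT 1 to 5 and 9.0, 9.39, 9.45, 9.38 and 9.75 in KO 1 to 5, with the extremes KO 1 and KO 5 in the same group and a difference of 0.15 ± 0.14. Cyp4a14, a classical PPAR alpha target, gave -0.020 ± 0.072. Cyp4f18, a leukotriene hydroxylase of myeloid cells, gave 0.11 ± 0.080. Its second probe set gave -0.065 and had a correlation of 0.045 with the first, so the sign is not settled. The 5 members of the 4f group on chromosome 17, whose enzymes inactivate leukotrienes among other lipids, lay between -0.12 (Cyp4f16) and 0.021 (Cyp4f14). A second probe set of Cyp4f16 gave -0.20.

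Cholesterol and oxysterol breakdown was read by 6 members, of which 5 had a higher mean in KO, with a median of 0.065 log2 units. Cyp27a1, the mitochondrial sterol 27-hydroxylase, had the largest difference above 0 of all members. Its signal was 10.20, 10.25, 9.91, 9.32 and 9.55 in WT 1 to 5 and 10.55, 9.89, 10.43, 10.19 and 10.09 in KO 1 to 5. WT 4 and WT 5 were the lowest arrays, and the other WT values lay within the KO range. The means were 9.85 ± 0.40 (SD, n = 5) in WT and 10.23 ± 0.26 (SD, n = 5) in KO, so that KO exceeded WT by 0.38 ± 0.19 (confidence interval -0.027 to 0.79, adjusted p = 0.914 by limma). An exact two-sided permutation test gave p = 0.14, and without WT 4 and WT 5 the difference was 0.11 ± 0.15. A second, dimmer probe set of Cyp27a1 gave 0.042 and had a correlation of 0.105 with the one used. Cyp46a1, the brain cholesterol 24-hydroxylase, gave 0.15 ± 0.079, with WT arrays from 5.00 to 5.40 and KO arrays from 5.31 to 5.56. Cyp7b1, which hydroxylates oxysterols, gave 0.068 ± 0.071 with a signal below the array medians, and turned to -0.017 with a different probe set. Cyp7a1 and Cyp8b1, which act in bile acid synthesis in liver, gave 0.016 ± 0.052 and -0.0019 ± 0.056.

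Vitamin D is activated by Cyp2r1 and Cyp27b1 and broken down by Cyp24a1. Cyp2r1, a 25-hydroxylase, gave 3.67, 3.67, 3.40, 3.04 and 3.01 in WT 1 to 5 and 3.53, 3.93, 3.48, 3.61 and 3.70 in KO 1 to 5. The low arrays were again WT 4 and WT 5, and the difference was 0.29 ± 0.15, or 0.068 without them. With the muscle covariate it was 0.41 ± 0.12 (adjusted p = 0.62 by limma), and the signal was below the array medians. Cyp27b1 gave -0.082 ± 0.089 and Cyp24a1 gave -0.055 ± 0.076. A second probe set of Cyp24a1 gave 0.091. Retinoic acid is cleared by Cyp26a1 and Cyp26b1, which gave 0.074 ± 0.064 and 0.11 ± 0.091. For Cyp26b1 the WT arrays spanned 5.13 to 5.55 and the KO arrays 5.22 to 5.53, which overlapped almost fully.

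Steroid hormone synthesis was read by 5 members, with differences from -0.075 (Cyp21a1) to 0.047 (Cyp11a1) log2 units and a highest SD of 0.15. Cyp11a1 cleaves the cholesterol side chain as the entry step of steroid synthesis. It gave 4.61, 4.54, 4.32, 4.51 and 4.60 in WT 1 to 5 and 4.54, 4.40, 4.72, 4.69 and 4.48 in KO 1 to 5, with overlapping groups. Its other probe sets gave -0.064 and -0.11, so the sign is not settled. Cyp17a1, Cyp11b1 and Cyp11b2 lay between -0.037 and 0.0071. Cyp20a1, an orphan member that lies outside these groups, gave -0.064 ± 0.091. Across the family, 18 members had several probe sets, and 12 of the 23 probe sets not used had the sign of the one used.

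Some of the variable members moved together from array to array. Over the 8 members with the largest SD and the muscle mean, 36 pairs were compared with permutation p-values adjusted by Benjamini and Hochberg over the 36, and 3 pairs had an adjusted p under 0.05 for Pearson's r. These 8 members were picked for their spread over the same 10 arrays, and WT 4 and WT 5 carried much of the spread. The permutation p-values take no account of that choice, so they only describe the picked members. Cyp27a1 and Cyp4v3, a sterol and a fatty acid hydroxylase, had r = 0.90 (adjusted p = 0.0094) and rho = 0.95 (adjusted p = 0.0058) over 10 arrays. Without WT 4 and WT 5, the arrays farthest from the median of Cyp27a1, r was 0.79. With the muscle mean, Cyp27a1 and Cyp4v3 had r = -0.80 and -0.63 without these arrays, and -0.32 and -0.30 over all 10. The part of muscle content in the relation of this pair was not tested. Cyp2b10 and Cyp2r1 ran opposite, with r = -0.82 (adjusted p = 0.044) and rho = -0.76 (adjusted p = 0.089), and r = -0.62 without WT 4 and WT 5. Cyp1a1 and Cyp27a1 also ran opposite, with r = -0.82 (adjusted p = 0.046) and rho = -0.85 (adjusted p = 0.053), and r = -0.46 without them. Without WT 4 and WT 5, the permutation p of r was 0.10 for Cyp2b10 and Cyp2r1 and 0.25 for Cyp1a1 and Cyp27a1. Fewer arrays also give larger p-values, so how far these relations rest on WT 4 and WT 5 was not settled. Cyp2e1 and Cyp2b10, the members of widest spread, had r = 0.60 (adjusted p = 0.20) and rho = 0.42 (adjusted p = 0.47), and r = -0.096 without WT 4 and WT 5. The unadjusted permutation p for r was 0.00026, 0.0025, 0.0038 and 0.068 in these 4 pairs. For Cyp2e1 and Cyp27a1, r was -0.80 (unadjusted permutation p = 0.0058, adjusted p = 0.052) and rho -0.65 (adjusted p = 0.17), and r was -0.28 without them.

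**Figure D4:**
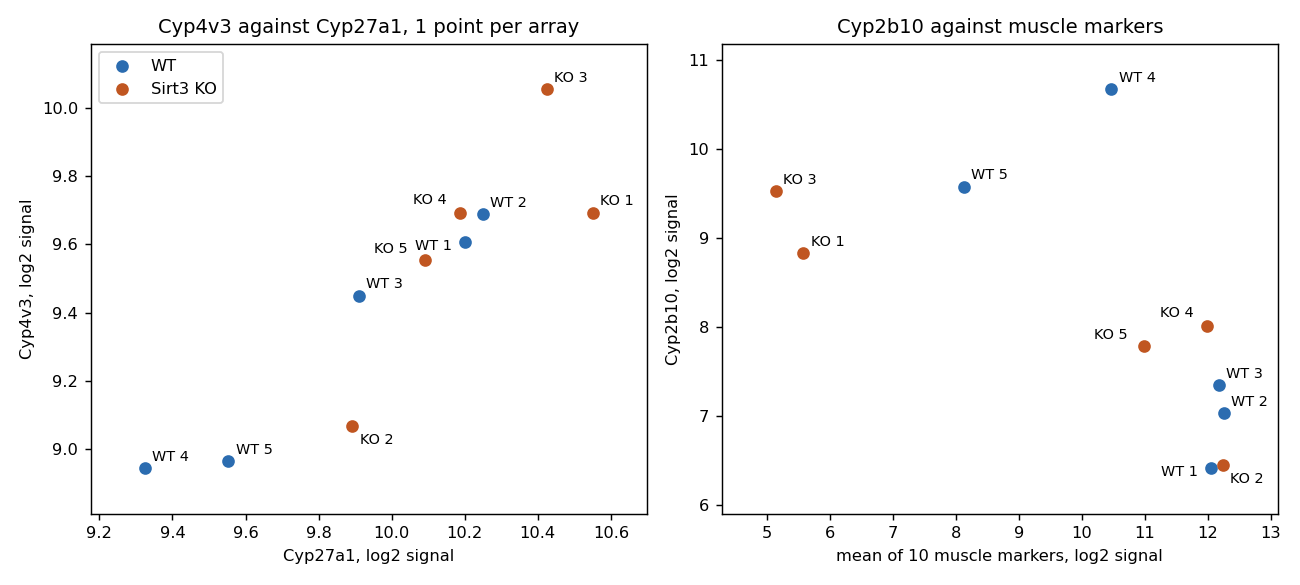
Left, log2 signal of Cyp4v3 against Cyp27a1. Right, log2 signal of Cyp2b10 against the mean of 10 muscle markers. Each point is 1 array, WT in blue and Sirt3 KO in orange. WT 4 and WT 5 are lowest in both genes on the left, and on the right the 4 arrays with the highest Cyp2b10 have the lowest muscle means.

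The genes that serve P450 enzymes were read from fixed lists, and 0 of their 56 measured members had an adjusted p under 0.05 by limma. Before adjustment, 3 of the 56 (5.36%) had a p under 0.05, Ptgis, Cyp51 and Rxra, against 4.68% of all genes. Among electron donors and haem supply (11 of 13 measured), 7 had a higher and 4 a lower mean in KO, with a median of 0.066 log2 units, against -0.013 for all genes. Cyb5r3, a cytochrome b5 reductase, gave 0.23 ± 0.14, or 0.018 without WT 4 and WT 5, and its relative Cyb5r1 gave -0.17 ± 0.093. Fdx1, the mitochondrial ferredoxin that feeds Cyp27a1, gave 0.085 ± 0.10, or -0.049 without WT 4 and WT 5. Hmox2, a haem oxygenase, gave -0.090 ± 0.047, and Pgrmc1, a haem protein that binds P450s, gave -0.071 ± 0.067. The reductase gene Por and the ferredoxin reductase gene Fdxr were not analysed here.

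The fixed list of P450 enzymes whose symbols lie outside the naming rule held Ptgis, Cyp51 and Tbxas1. Other Cyp symbols outside the rule, such as Cyp4a12a, were not followed here. Ptgis, which makes prostacyclin, gave 7.43, 7.48, 7.33, 6.58 and 6.41 in WT 1 to 5 and 7.37, 7.95, 7.43, 7.80 and 7.68 in KO 1 to 5. WT 4 and WT 5 lay lowest and the others overlapped, with a difference of 0.60 ± 0.22 (unadjusted p = 0.019 and adjusted p = 0.914 by limma), p = 0.056 in an exact two-sided permutation test, and 0.23 without those arrays. Cyp51, the lanosterol demethylase of cholesterol synthesis, gave 7.46, 7.25, 7.48, 7.67 and 7.59 in WT 1 to 5 and 7.32, 7.54, 6.99, 7.20 and 7.11 in KO 1 to 5. Its groups overlapped through WT 2 and KO 2. The difference was -0.25 ± 0.11 (unadjusted p = 0.037 by limma), with p = 0.079 in an exact two-sided permutation test. This Cyp51 difference ran from -0.33 to -0.092 over the alternatives given below. Other, dimmer probe sets of Cyp51 overlapped more widely. One spanned 4.76 to 5.38 in WT and 4.76 to 5.23 in KO. Another spanned 3.75 to 4.27 in WT and 4.01 to 4.36 in KO, with WT 2 lowest and KO 1 highest. Tbxas1, thromboxane synthase, gave 0.058 ± 0.056.

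Of the regulators (18 of 19 measured), 8 had a higher and 10 a lower mean in KO, with a median of -0.0049. Rxra, the retinoid receptor that pairs with CAR, PXR, LXR and PPAR, gave 8.38, 8.25, 8.33, 8.52 and 8.30 in WT 1 to 5 and 8.17, 8.33, 8.0, 8.16 and 8.03 in KO 1 to 5. All KO arrays except KO 2 lay below all WT arrays, with a difference of -0.22 ± 0.074 (unadjusted p = 0.013 and adjusted p = 0.914 by limma) and p = 0.024 in an exact two-sided permutation test. Over the alternatives given below, the Rxra difference ran from -0.27 to -0.043. Nr1h3, the oxysterol receptor LXR alpha, gave -0.16 ± 0.11, or -0.0095 without WT 4 and WT 5. Nr1i2, which encodes PXR, gave -0.10 ± 0.096, Nr1i3, which encodes CAR, gave -0.00048 ± 0.059, and Ahr gave 0.025 ± 0.19. Among other AHR targets (3 of 5 measured), Tiparp, whose product damps AHR, gave 0.19 ± 0.11, Nqo1 gave -0.055 ± 0.13 and Aldh3a1 gave -0.089 ± 0.066.

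Conjugating enzymes and epoxide hydrolases (9 of 11 measured), which act on P450 products, had a higher mean in KO in 3 and a lower one in 6, with a median of -0.013. Ephx2, the soluble hydrolase that removes the epoxides made by the 2c and 2j enzymes, gave -0.13 ± 0.11. Among genes of retinoid and steroid handling (13 of 15 measured), 6 were higher and 7 lower, with a median of -0.025. Hsd3b7, an enzyme of bile acid synthesis, gave -0.27 ± 0.13, or -0.080 without WT 4 and WT 5, and Ch25h, the cholesterol 25-hydroxylase, gave 0.15 ± 0.10.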

How the data were processed

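The deposited values are log2 signals per probe set, made by the authors with RMA per the submitters' processing notes; version and settings of RMA were not given in the sources used here. Per the labels' protocols, 6 ug of Trizol-extracted, column-cleaned RNA per sample were labelled with biotin. RMA evens out the arrays, which hides shifts common to most genes, and it sets no floor on dim signals. The number of arrays limits the precision.

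Of 45101 probe sets, 64 controls, 932 with several genes and 9160 with none were left out, and the set with the highest mean was kept per gene. All 70 members matched RefSeq GRCm38.p6 by gene ID. A further 9 probe sets with Cyp symbols, such as those of Cyp51 or of several genes, fell outside the naming rule. KO was compared with WT in limma 3.58.1 (lmFit, then eBayes) under R 4.3.3, two-sided, with Benjamini-Hochberg adjustment over 18193 genes and a threshold of 0.05; errors beside differences are its standard errors. Correlations used 100000 permutations in scipy 1.17.1. The fit was tested on simulated data. Members, lists and alternatives were chosen with earlier results of these data known. The naming rule took the 5 members with the smallest unadjusted p per direction, the 8 with the largest SD, those without overlap, fixed members of known role, and up to 4 partner genes per list; other members are named to describe their groups. The 22 alternatives changed scaling, a filter on dim genes, the variance model, array weights, the probe set, a replicate block, a muscle covariate and the arrays used. Figures were drawn with matplotlib 3.10.9.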

Additional observations from a re-analysis of the deposited data

Results flagged for a closer look

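In 86 groups of 5 arrays, formed by the named genes in WT and KO, 1 array stood apart from the other 4 in 6 cases by Dixon's ratio of gap to range at its 95% level, where chance gives about 1 in 20 groups. Cyp2d34 had such an array in each group: WT 1 at 4.09 against 3.79 to 3.86 in the other WT arrays, and KO 4 at 3.58 against 3.74 to 3.78 in the other KO arrays. Cyp2f2 was 4.55 in WT 3 and 3.83 to 4.02 in the other WT arrays. Cyp7b1 was 3.36 in KO 5 and 3.22 to 3.26 in the other KO arrays. Among partner genes, Hsd3b1, a steroid dehydrogenase, was 4.04 in KO 5 against 3.99 to 4.0 in the other KO arrays. Tspo, the mitochondrial cholesterol-binding protein, was 12.53 in WT 1 against 12.63 to 12.66 in the other WT arrays. The Dixon ratio did not single out an array of Cyp2e1 or Cyp2b10, in which WT 4 and WT 5 were both high.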

How the results depend on the processing

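No P450 gene had an adjusted p under 0.05 in the main comparison or in any of the 22 alternatives, and the smallest adjusted p of limma was 0.569, for Cyp2e1 without WT 2 (-2.18 ± 0.70). The count of members with an unadjusted p under 0.05 was 2. It was 1 after repeated quantile normalization, with genes of a mean under 5 left out (30 members tested), with those under 7 left out (11 members tested), with the probe set of largest variance, and without WT 4 and WT 5, and it ran from 1 to 7 when single arrays were left out (7 without WT 2, 6 without KO 2). With the replicate number as a block it was 6 (8.57%, against 4.05% of all genes) and 0 passed adjustment. Correlations of same-numbered arrays ran from -0.40 to 0.24, and 0 of 10 arrays correlated best with its own number. These values gave no sign that the numbers pair the arrays. They cannot exclude a pairing, since the arrays also differed widely in muscle signal. The count without overlap, 1, was 0 after quantile normalization and under both filters, and ran from 1 to 3 with single arrays left out (3 without WT 2 or without KO 2). The 6 members in the top 5% by SD became 3 with the filter at 5, 2 with the filter at 7 and 3 without WT 4 and WT 5. The 39 members lower in KO were 19 of 30 and 7 of 11 under the filters. Of 906 gene values under alternatives, 882 kept their sign and side of the threshold and 24 turned sign, in 10 of 43 genes. Without WT 4 and WT 5 these were Cyp1a1 (0.235), Cyp2b10 (1.19), Fdx1 (-0.049), Gstp1 (-0.021), Nr1h4 (0.024) and Nr1i2 (0.011). Cyp2b10 was 0.193 with array weights, Nqo1 was 0.014 with the muscle covariate, Cyp7b1 was -0.017 without probe sets that can match several transcripts, and Cyp11a1 was -0.041 as the mean of its probe sets and -0.11 with the set of largest variance. With single arrays left out the ranges were -0.0011 to 0.088 for Cyp11a1, -0.25 to 0.040 for Cyp1a1, -0.54 to 0.53 for Cyp2b10, -0.080 to 0.15 for Ahr, -0.11 to 0.039 for Nqo1 and -0.12 to 0.0015 for Nr1h4. The causes were not tested.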
